A study of Mus musculus with 54 samples.

Results

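Mock transfection of unpolarized macrophages was examined in 6 of the 54 RNA sequencing samples of this series, namely the 3 libraries labelled M0_mock (called M0 mock here) and the 3 labelled M0 (untransfected M0). They were picked by these labels from the 36 libraries of the reprogramming experiment, which holds 12 groups of 3. All 6 came from peritoneal exudate cells of C57BL/6 mice aged 8 to 20 weeks, collected 4 days after thioglycolate had been injected into the peritoneum and selected by adherence to plastic. Neither group had received a polarizing stimulus. M0 mock macrophages were treated with the lipid transfection reagent DharmaFECT 4 without any siRNA. For polarized cells the methods give 24 h of culture before transfection, and for the reprogramming study they give sequencing 48 h after it. They name no schedule for M0 mock, and a legend on PCR of M0 cells given siRNA has a different one. The times of M0 mock are therefore inferred. For cells without transfection, M0 among them, the methods give sequencing 24 h after polarization. They do not say whether that time holds for the untransfected libraries used here or only for a separate polarization experiment of the series. Time in culture and exposure to the reagent therefore cannot be told apart in this comparison. Where another cell state is set beside M0, M1 stands for macrophages given LPS and IFN-γ and M2 for macrophages given IL-4, again with 3 untransfected and 3 mock libraries each. Macrophages elicited by thioglycolate are recruited inflammatory cells with some cells of the resident peritoneal kind among them, and neither the labels nor the methods on sequencing say whether the 3 replicates came from separate mice or cultures. The methods speak of 3 biological replicates for M0, M1 and M2 where they describe quantitative PCR, and do not name mock cells there. The p-values below rest on the spread within groups, estimated over all 36 libraries and not from these 6 alone. That spread may in part be technical.

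A mock transfection serves as the control for a knockdown, and the comparison with untreated cells asks what the procedure changes before an siRNA is added. Macrophages sense foreign nucleic acid and bacterial products with dedicated receptors and answer with type I interferon, which signals through the Ifnar1 and Ifnar2 receptor chains, Janus kinases and a complex of transcription factors. That complex binds interferon-stimulated response elements in the promoters of antiviral genes. Lipids taken up with a transfection complex reach the cell by endocytosis, and macrophages handle surplus lipid through sterol-regulated synthesis genes and through the LXR receptors, which switch on cholesterol export.

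Between 13582919 and 15851418 reads were counted on genes in the untransfected M0 libraries and between 15077403 and 19704195 in the M0 mock libraries, within the span of 13421854 to 19704195 over all 36. Reads from mitochondrially encoded genes made up 1.47% to 1.6% of the untransfected M0 counts and 1.27% to 1.63% of the M0 mock counts. Levels are given as CPM, read counts scaled to TMM-normalized library sizes. The cells carried macrophage markers at high levels in every library: Lyz2 stood at 12442, 12138 and 12027 CPM in untransfected M0 and 10936, 8703 and 11269 CPM in M0 mock. Summed over the 12 macrophage markers, the level ranged from 17561 to 17946 CPM in untransfected M0 and from 14196 to 16941 CPM in M0 mock. Marker lists of other cell types stayed far below. Neutrophil markers summed to 39.3 to 48.9 CPM in untransfected M0 and 19.6 to 35.8 CPM in M0 mock, with Ly6g, S100a9, Ngp and Retnlg without a read in any of the 6 libraries. Eosinophil markers summed to 16.9 to 24.6 CPM against 9.60 to 12.8 CPM, with Prg2, Epx and Ear6 at 0. Mesothelial and fibroblast markers summed to 132 to 258 CPM against 203 to 320 CPM. T and NK cell markers were at most 2.16 CPM in 5 of the libraries and 8.54 CPM in M0 mock replicate 2. B cell markers summed to 33.7, 73.8 and 23.7 CPM in untransfected M0 and 44.5, 96.3 and 29.2 CPM in M0 mock, so that replicate 2 was highest in both groups. In bulk RNA, fewer cells of a type and less RNA per cell cannot be told apart.

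With edgeR's quasi-likelihood test on all 14172 genes that passed the expression filter, M0 mock exceeded untransfected M0 for 1663 genes (11.7%) and fell short of it for 1228 (8.66%), at a Benjamini-Hochberg adjusted p under 0.05. Of these, 494 and 176 differed by at least 1 on the log2 scale. The median log2 fold change over all tested genes was -0.0039. The 3 M0 mock libraries lay above all 3 untransfected libraries for 18.3% of the tested genes and below all of them for 17.4%. Each list of genes below is read against these shares. Among the 15 largest increases that met the naming rule, 12 belonged to the list of interferon-stimulated genes.

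All 36 interferon-stimulated genes that could be tested, out of 37 listed, were higher in M0 mock than in untransfected M0. Their median log2 fold change was 2.45, which is 5.45-fold, and the smallest and largest were 0.87 for Irf9 and 6.24 for Ifi44. The mean level of Ifi44 was below the minimum of the naming rule, a log2 CPM of 2, so its ratio rests on low counts. The 3 M0 mock libraries lay above the 3 untransfected libraries for each of the 36. Ifi44l, which did not pass the expression filter, had no read in the 6 libraries. The 3 M0 mock libraries were far from alike in this response: replicate 3 was the highest for 36 of the 36 genes and replicate 1 the lowest for 35. Within untransfected M0, replicate 1 was the highest for 33. The summed level of the 37 genes was 1292, 912 and 884 CPM in untransfected M0 and 2890, 4216 and 6068 CPM in M0 mock.

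Genes that restrict viral RNA were among those with the largest changes. Ifit2 (chr19:34550694-34576419, plus strand, protein-coding, GRCm38 with GENCODE M21), whose protein binds viral RNA, was counted at 8.34, 2.85 and 4.43 CPM in untransfected M0 and 105, 185 and 388 CPM in M0 mock, a log2 fold change of 5.47 ± 0.41 (SE; adjusted p = 1.43e-11, edgeR). Its neighbours Ifit3 and Ifit1 changed by 4.72 and 4.03, Ifit3 from 7.39, 2.23 and 2.32 CPM to 50.8, 90.5 and 166 CPM. The GTPase gene Mx1 rose from 5.86, 3.23 and 1.77 CPM to 30.4, 50.5 and 81.8 CPM, and Mx2, annotated as a polymorphic pseudogene, from 2.05, 0.62 and 1.36 CPM to 11.5, 11.3 and 20.1 CPM. For each of these genes the lowest mock library was several fold above the highest untransfected one. Rsad2 (viperin) was at 22.9, 13.7 and 15.8 CPM in untransfected M0 and 114, 166 and 207 CPM in M0 mock, with a log2 fold change of 3.23 ± 0.22 and an adjusted p of 2.28e-12 in edgeR, and its genomic neighbour Cmpk2 changed by 2.997. Isg15, a ubiquitin-like modifier, was at 7.32, 3.23 and 4.57 CPM in untransfected M0 and 22.7, 37.3 and 85.4 CPM in M0 mock, and Usp18, which removes it from proteins, changed by 2.69. Zbp1, a sensor of Z-form nucleic acid, rose by 2.96 and Rtp4 by 2.87 on the log2 scale. The transcription factor gene Irf7, which drives a later wave of interferon, was at 62.7, 23.6 and 20.4 CPM in untransfected M0 and 149.5, 328 and 598 CPM in M0 mock, a log2 fold change of 3.34 ± 0.34. The synthetases Oasl2 and Oas2, whose family makes the messenger that activates RNase L, changed by 2.52 and 2.50. The plots of single libraries show the spread between the mock replicates for these genes.

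**Figure D1:**
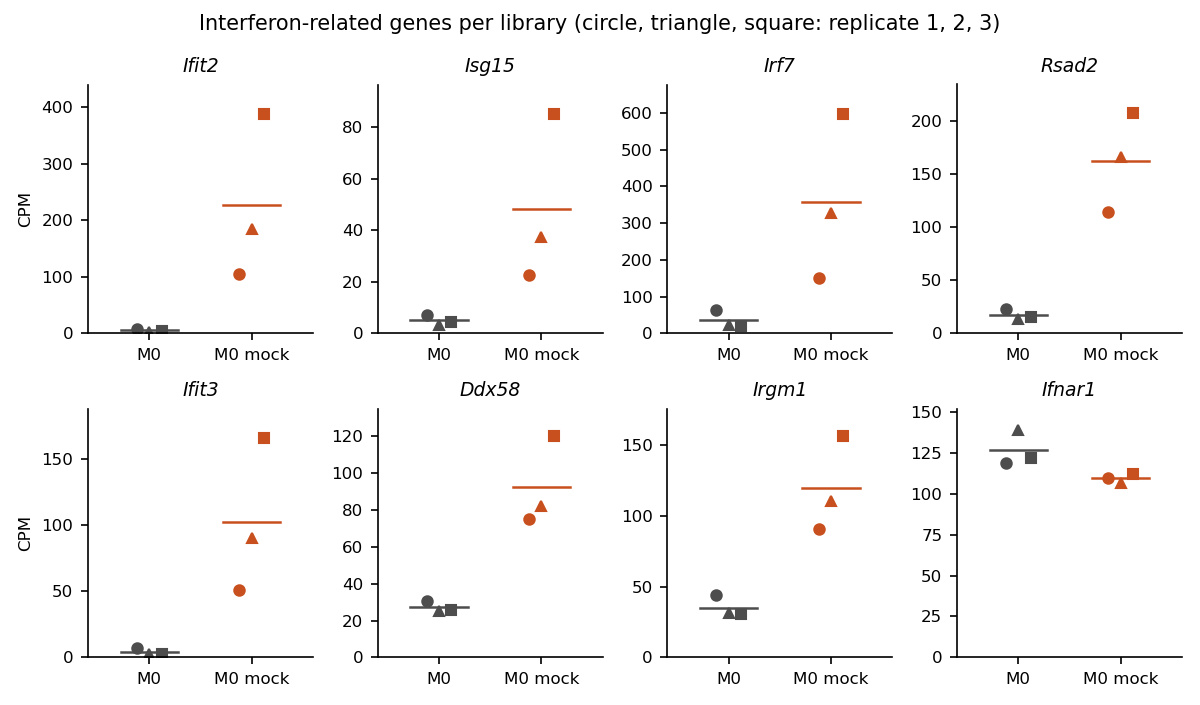
CPM of 8 interferon-related genes in the 3 untransfected M0 (grey) and 3 M0 mock (orange) libraries, on linear axes that start at 0; the marker shape gives the replicate number and the line the mean of 3. For Ifit2, Isg15, Irf7, Rsad2, Ifit3, Ddx58 and Irgm1 all mock libraries lie above all untransfected ones with replicate 3 on top, while Ifnar1 lies slightly lower in the mock libraries.

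Promoters of some of these genes are shown because the response element can be read in them. Windows of 300 bases around the transcript start, from RefSeq on build GRCm38.p6, were available for 27 of the 37 listed genes, and 18 of the 27 (66.7%) held the letters GAAANNGAA on either strand, the core of the interferon-stimulated response element, against 9.76% of 27025 genes with such a window. The 4 stretches below belong to genes among the largest increases and run 5′ to 3′ along the gene's own strand, with the matching letters, forward or as reverse complement, in capitals. They lie at chr19:34583354-34583455 (Ifit3, plus strand), chr19:34640760-34640833 (Ifit1, plus strand), chr4:156200856-156200916 (Isg15, minus strand) and chr12:26456543-26456591 (Rsad2, minus strand), each just before the start of a protein-coding gene.
Ifit3: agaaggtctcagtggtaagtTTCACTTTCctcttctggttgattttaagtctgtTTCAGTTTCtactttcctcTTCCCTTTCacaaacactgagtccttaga
Ifit1: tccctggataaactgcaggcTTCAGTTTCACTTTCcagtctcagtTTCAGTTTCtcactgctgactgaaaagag
Isg15: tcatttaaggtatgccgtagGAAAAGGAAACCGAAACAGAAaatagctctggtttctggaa
Rsad2: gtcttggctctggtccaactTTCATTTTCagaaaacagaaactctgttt
Ifit3 holds 3 matches that stand apart, Ifit1 holds 3 of which the first and second overlap, Isg15 has 3 that overlap in a single run, and Rsad2 has 1. The stretch of Ifit3b did not differ from that of Ifit3 in any of 102 bases. Whether reads of the transcripts of these paralogs were divided between them by the counting was not tested. The windows of Ifit2, Irf7, Cmpk2 and Oasl2, also named above, held no match, which says only that these letters are not in them. Of genes called higher, 13.4% held the letters (167 of 1250 with a window), against 8.89% of genes called lower (82 of 922) and 8.24% of tested genes that were not called (656 of 7965). A match describes the sequence and not the binding of a factor.

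Genes that respond most to IFN-γ followed, with smaller changes. Of 29 tested members of the list of GTPases and antigen presentation genes, 25 were higher in M0 mock, none was lower and the median log2 fold change was 0.71. The immunity-related GTPase gene Irgm1 was at 43.8, 31.5 and 30.4 CPM in untransfected M0 and 90.9, 111 and 156 CPM in M0 mock, a log2 fold change of 1.76 ± 0.15 (adjusted p = 3.82e-10, edgeR). The guanylate-binding protein genes Gbp3 and Gbp7 rose by 1.65 and 1.21. All 3 GTPase genes were higher in every mock library. Of the peptide loading genes, Tapbp was at 433, 419 and 391 CPM in untransfected M0 and 753, 951 and 868 CPM in M0 mock, and Tap1 changed by 0.98. Nlrc5, which switches on MHC class I genes, rose by 1.18, from 32.8, 28.8 and 23.3 CPM to 54.8, 60.7 and 76.9 CPM. MHC class II genes moved less, with log2 fold changes of 0.63 for H2-Aa and 0.54 for Cd74, or 0.34 for Cd74 without untransfected M0 replicate 3. The letters GAAANNGAA were in 11 of the 21 windows of this list (52.4%).

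Many sensors of nucleic acid were higher, while transcripts of the interferons themselves were at the edge of detection. Of 20 sensors and adaptors, 13 were higher and none was lower, with a median log2 fold change of 0.57. The RNA helicase genes Ddx58 (RIG-I), Dhx58 (LGP2) and Ifih1 (MDA5) changed by 1.77, 1.84 and 1.24, with Ddx58 at 30.8, 24.9 and 25.6 CPM in untransfected M0 and 74.9, 82.2 and 120.2 CPM in M0 mock. Ikbke, a kinase that acts on interferon regulatory factors, was at 135, 136 and 119 CPM in untransfected M0 and 215, 205 and 225 CPM in M0 mock, a tight and complete separation (log2 fold change 0.72 ± 0.08). The DNA-binding protein genes Ifi204, Ifi206 and Ifi213 rose by 1.71, 4.40 and 4.61. They belong to 1 gene family, and whether the counting divided reads among its members was not tested. Ifnb1 had 0 reads in each untransfected library and 1, 0 and 1 in the mock libraries, and its difference was not detectable at this depth. Of the 12 listed genes for interferons, their receptors and Janus kinases, 8 could be tested and 1 was called in each direction. Ifnar1 was at 118, 139 and 121 CPM in untransfected M0 and 109, 107 and 112 CPM in M0 mock, lower by -0.21 on the log2 scale, and Jak1 was higher by 0.15. Both calls were fragile: without untransfected M0 replicate 2, Ifnar1 changed by -0.13 with an adjusted p of 0.246 in edgeR, and it was also lost without M0 mock replicate 1 (-0.21) or 2 (-0.19). Jak1 was lost without untransfected M0 replicate 1 (0.15) or 3 (0.12) or M0 mock replicate 3 (0.12).

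Outside the interferon response, most fatty acid synthesis genes were higher. Of 15 tested members 10 were higher, none was lower, and the median log2 fold change was 0.41. Scd2, a stearoyl-CoA desaturase gene, was at 43.6, 46.8 and 42.01 CPM in untransfected M0 and 189.6, 138 and 274 CPM in M0 mock, a log2 fold change of 2.18 ± 0.24 (adjusted p = 2.72e-08, edgeR), and its relative Scd1 was at 5.34, 7.88 and 5.25 CPM in untransfected M0 and 26.6, 21.7 and 33.4 CPM in M0 mock. Fasn, the fatty acid synthase gene, was at 44.1, 39.9 and 37.6 CPM in untransfected M0 and 106, 107 and 144 CPM in M0 mock, a log2 fold change of 1.56 ± 0.17. All 3 were higher in each mock library than in any untransfected one by a wide margin. The desaturase gene Fads2 rose by 2.13 at a low level, the acyl-CoA synthetase gene Acsl3 by 0.92, and Srebf1, which codes for the master factor of lipid synthesis, by 0.41.

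Of 25 genes for cholesterol synthesis and uptake, 10 were called higher, none was called lower and 15 did not pass the test, with a median of 0.27 on the log2 scale. Lss, the gene for lanosterol synthase, was at 34.1, 32.6 and 37.04 CPM in untransfected M0 and 56.6, 52.6 and 58.1 CPM in M0 mock, a log2 fold change of 0.69 ± 0.12, and the sterol feedback gene Insig1 was at 98.97, 105 and 92.1 CPM in untransfected M0 and 160.4, 129 and 145 CPM in M0 mock. Both were higher in every mock library, and their untransfected libraries lay close together. Mvd and Sc5d rose by 0.71 and 0.56. The count of 10 fell to 6 without untransfected M0 replicate 3 and to 6 without M0 mock replicate 3.

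Of 16 tested genes for cholesterol export and other targets of LXR, 6 were higher, none was lower and 10 did not pass the test. The export pumps Abca1 and Abcg1 were among the 6: Abca1 was at 117, 120.2 and 90.4 CPM in untransfected M0 and 342, 267 and 373 CPM in M0 mock, a log2 fold change of 1.59 ± 0.17, and Abcg1 was at 218, 216 and 211 CPM in untransfected M0 and 432, 411 and 479 CPM in M0 mock, a log2 fold change of 1.03 ± 0.09 (adjusted p = 4.76e-10, edgeR). The ubiquitin ligase gene Mylip rose by 0.71, the lysosomal cholesterol carrier gene Npc2 by 0.69 and Lpcat3 by 0.43. Members of both the synthesis and the export lists were thus higher in the same libraries. Of 30 phospholipid and sphingolipid synthesis genes 9 were higher and none lower, among them the choline pathway genes Chka (0.90), Pcyt2 (0.53) and Pcyt1a (0.37) and the sphingosine kinase gene Sphk1 (1.004). PPAR targets and lipid storage genes were divided, with 3 of 19 higher and 4 lower. Lpl, for the lipase that frees fatty acids from lipoproteins, fell from 3419, 4328 and 4046 CPM to 2372, 2351 and 2192 CPM, and Cpt1a, for fatty acid entry into mitochondria, fell by 0.47 on the log2 scale. Pnpla2, for the lipase of lipid droplets, rose by 0.56.

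**Figure D2:**
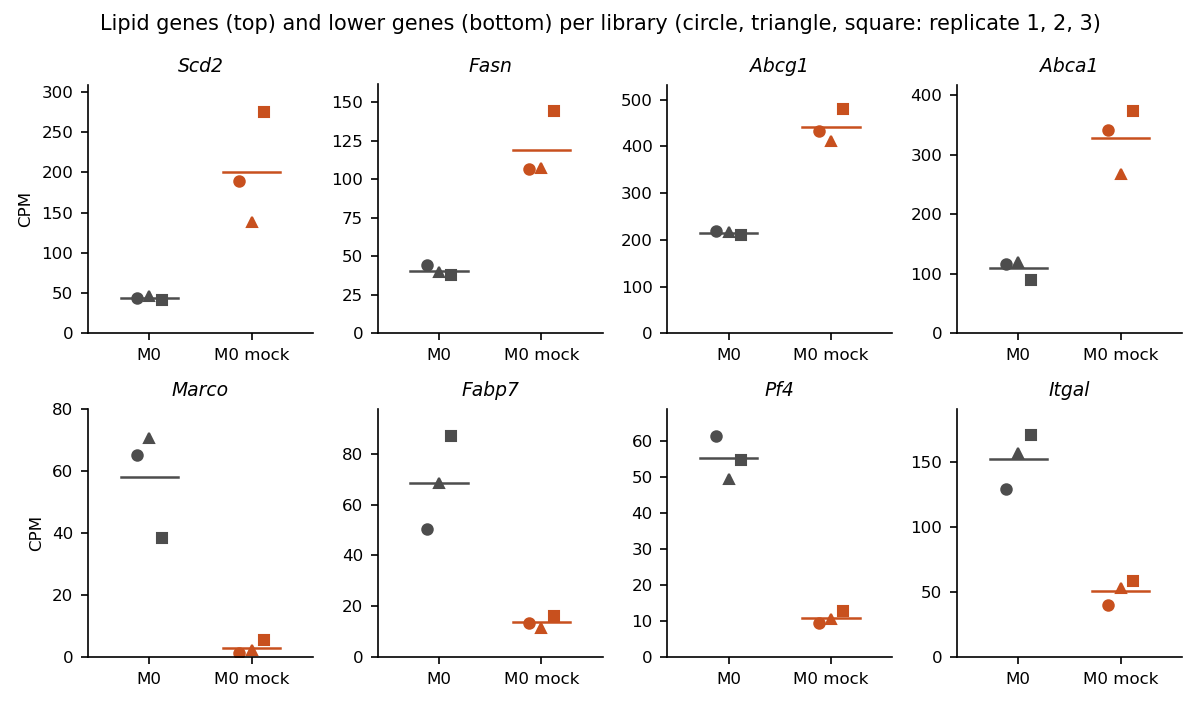
CPM of 4 lipid genes (top row) and 4 genes that were lower in M0 mock (bottom row) in the 3 untransfected M0 (grey) and 3 M0 mock (orange) libraries, on linear axes that start at 0; the marker shape gives the replicate number and the line the mean of 3. The groups do not overlap in any of the 8 panels, which the naming rule required of Marco, Fabp7 and Pf4.

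Of 37 genes for lysosomal enzymes and membrane proteins, 11 were higher, 1 was lower and 25 did not pass the test, with a median of 0.17. Ctsz (cathepsin Z) was at 2884, 2534 and 2694 CPM in untransfected M0 and 3673, 3774 and 3729 CPM in M0 mock, a log2 fold change of 0.46. Ctsb (cathepsin B), among the most abundant transcripts, rose by 0.27. The member that was lower, Glb1, was at 259.6, 213 and 197 CPM in untransfected M0 and 173, 166 and 181 CPM in M0 mock, and its call was lost without untransfected M0 replicate 1 (-0.24, adjusted p = 0.108, edgeR). Of 16 subunits of the proton pump that acidifies lysosomes, 6 were higher, with 0.47 for Atp6v0c and 0.45 for Atp6v0d2. These counts moved with single libraries: the lysosomal count fell to 5 without untransfected M0 replicate 2, and the pump count to 3 without untransfected M0 replicate 2 or 3 or M0 mock replicate 1. In the list for the unfolded protein response of the endoplasmic reticulum 9 of 22 genes were higher and none was lower. The chaperone gene Hspa5 was at 439, 475 and 428 CPM in untransfected M0 and 704, 685 and 782 CPM in M0 mock, and Hyou1 rose by 0.41. The count of 9 became 5 without untransfected M0 replicate 1 and 4 without M0 mock replicate 3.

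Signalling genes of inflammation were higher in part. Of 25 immediate early genes 11 were higher and 1 was lower. Dusp1, whose phosphatase shuts off MAP kinases, was at 66.7, 69.05 and 75.6 CPM in untransfected M0 and 254, 246 and 228 CPM in M0 mock, a log2 fold change of 1.78 ± 0.15, and the transcription factor gene Klf6 was at 315, 299 and 302 CPM in untransfected M0 and 553, 497 and 569 CPM in M0 mock. Egr1 rose by 1.53, Ier5 by 0.92 and Fosl2 by 0.78, while Atf3 did not pass the test (-0.10). Of 23 genes for NF-kB subunits, inhibitors and targets 7 were higher and none was lower, among them the inhibitors Tnfaip3 (0.54) and Tnip1 (0.44).

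Among 22 cytokine genes 10 were higher and 2 lower, with a median of 0.72. Il1a was at 10.5, 8.25 and 6.34 CPM in untransfected M0 and 28.8, 18.6 and 26.1 CPM in M0 mock, a log2 fold change of 1.55 ± 0.20, and Tnf was at 7.54, 9.43 and 6.27 CPM in untransfected M0 and 20.4, 17.7 and 22.3 CPM in M0 mock. Il1rn, for the receptor antagonist that blocks interleukin 1, was at 48.8, 38.7 and 35.7 CPM in untransfected M0 and 73.5, 76.99 and 87.7 CPM in M0 mock. Il10, an inhibitory cytokine, was low throughout, at 0.512, 0.124 and 0.0682 CPM in untransfected M0 and 0.841, 0.967 and 1.89 CPM in M0 mock. Il1b did not pass the test, at 0.439, 0.496 and 0.205 CPM in untransfected M0 and 0.0701, 0 and 0.261 CPM in M0 mock. Both pro-inflammatory and inhibitory members were therefore among those that rose. Of 21 tested genes of the chemokine list 11 were higher and 1 was lower. The neutrophil and monocyte attractants Ccl3 and Ccl2 were at 40.8, 41.1 and 36.6 CPM in untransfected M0 and 82.8, 62.8 and 100.1 CPM in M0 mock for Ccl3 and at 6.37, 4.78 and 6.34 CPM in untransfected M0 and 10.1, 13.4 and 24.2 CPM in M0 mock for Ccl2. Cxcl10, an interferon-induced attractant of T cells, rose from 0.22, 0.186 and 0.136 CPM to 1.54, 3.12 and 3.98 CPM. Cxcl14 was the member called lower, with a log2 fold change of -1.10. Pf4, a chemokine gene that fell by 2.32, was not matched in this list, which holds it under an alias, and is not in its counts. M0 mock replicate 3 stood out here: Ccl4 was at 5.86, 5.58 and 4.64 CPM in untransfected M0 and 12.8, 11.9 and 36.9 CPM in M0 mock and Ccl6 at 398, 429.9 and 347 CPM in untransfected M0 and 575, 534 and 1431 CPM in M0 mock. Without that library the change of Ccl4 was 1.204 instead of 1.93, that of Ccl6 was 0.50 instead of 1.11, and 7 chemokine genes were higher. Socs3, an inhibitor of cytokine signalling, was at 8.93, 9.93 and 6.48 CPM in untransfected M0 and 9.11, 10.6 and 82.95 CPM in M0 mock, a change carried by that library alone: without it the log2 fold change was 0.22 with an adjusted p of 0.623 in edgeR. Socs1, the related inhibitor, was at 0.659, 0.931 and 1.23 CPM in untransfected M0 and 3.64, 7.04 and 4.64 CPM in M0 mock and separated without it.

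In the cell death and inflammasome list 9 of 21 genes were higher and 3 lower. Nlrp3, the sensor of the canonical inflammasome, was at 17.5, 19.2 and 13.9 CPM in untransfected M0 and 34.8, 37.8 and 32.5 CPM in M0 mock. Casp4, the receptor of cytosolic LPS, changed by 1.201, or by 0.74 without M0 mock replicate 3. Mlkl, the executor of necroptosis, rose by 0.997 and the DNA sensor gene Aim2 by 0.58. The lower count of 3 became 1 without untransfected M0 replicate 2 and 1 without M0 mock replicate 1. Of 21 Fc receptor and pattern recognition receptor genes 7 were higher and none lower. Fcgr4, for an activating receptor of IgG, was at 36.5, 27.9 and 24.9 CPM in untransfected M0 and 122, 119 and 165 CPM in M0 mock, a log2 fold change of 2.19 ± 0.15 (adjusted p = 2.28e-12, edgeR). The beta-glucan receptor gene Clec7a was at 579.7, 649.9 and 583 CPM in untransfected M0 and 1190.3, 1105 and 1027 CPM in M0 mock, and Syk, whose kinase acts below both, rose by 0.34. Fcgr1 changed by 1.09, or by 0.65 without M0 mock replicate 3.

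Genes outside these groups included Cdkn1c, for an inhibitor of the cell cycle, at 132, 73.8 and 69.7 CPM in untransfected M0 and 685, 741 and 427 CPM in M0 mock, a log2 fold change of 2.75 ± 0.19. Among the 15 largest increases it was 1 of 3 that are not on the interferon-stimulated list, beside Ifi213 and Slfn1 (3.67), and unlike the listed genes it was lowest in M0 mock replicate 3. Gdf15, a stress-induced cytokine, was at 36.2, 21.96 and 31.4 CPM in untransfected M0 and 146, 121 and 87.98 CPM in M0 mock. Of 23 p53 target and apoptosis genes 8 were higher and 2 lower, with Plk2 at 406, 338 and 354 CPM in untransfected M0 and 848, 863 and 725 CPM in M0 mock and Gadd45a at 50.6, 35.8 and 45.6 CPM in untransfected M0 and 97.9, 93.6 and 99.1 CPM in M0 mock. In all of these the groups were apart. Targets of the transcription factor Nrf2, which guards against oxidants, went the other way, with 11 of 25 lower and 3 higher and a median log2 fold change of -0.30. Gclm, for a subunit of the enzyme that limits glutathione synthesis, was at 52.3, 64.3 and 71.5 CPM in untransfected M0 and 27.4, 30.7 and 32.3 CPM in M0 mock, and Taldo1, Txnrd1 and Blvrb had log2 fold changes of -0.62, -0.48 and -0.74. Osgin1 rose by 1.36 against the trend of the list, and so did the ferritin gene Fth1, by 0.52. Nqo1 and Hmox1, commonly used as markers of Nrf2, did not pass the test (-0.51 and -0.19).

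**Figure D3:**
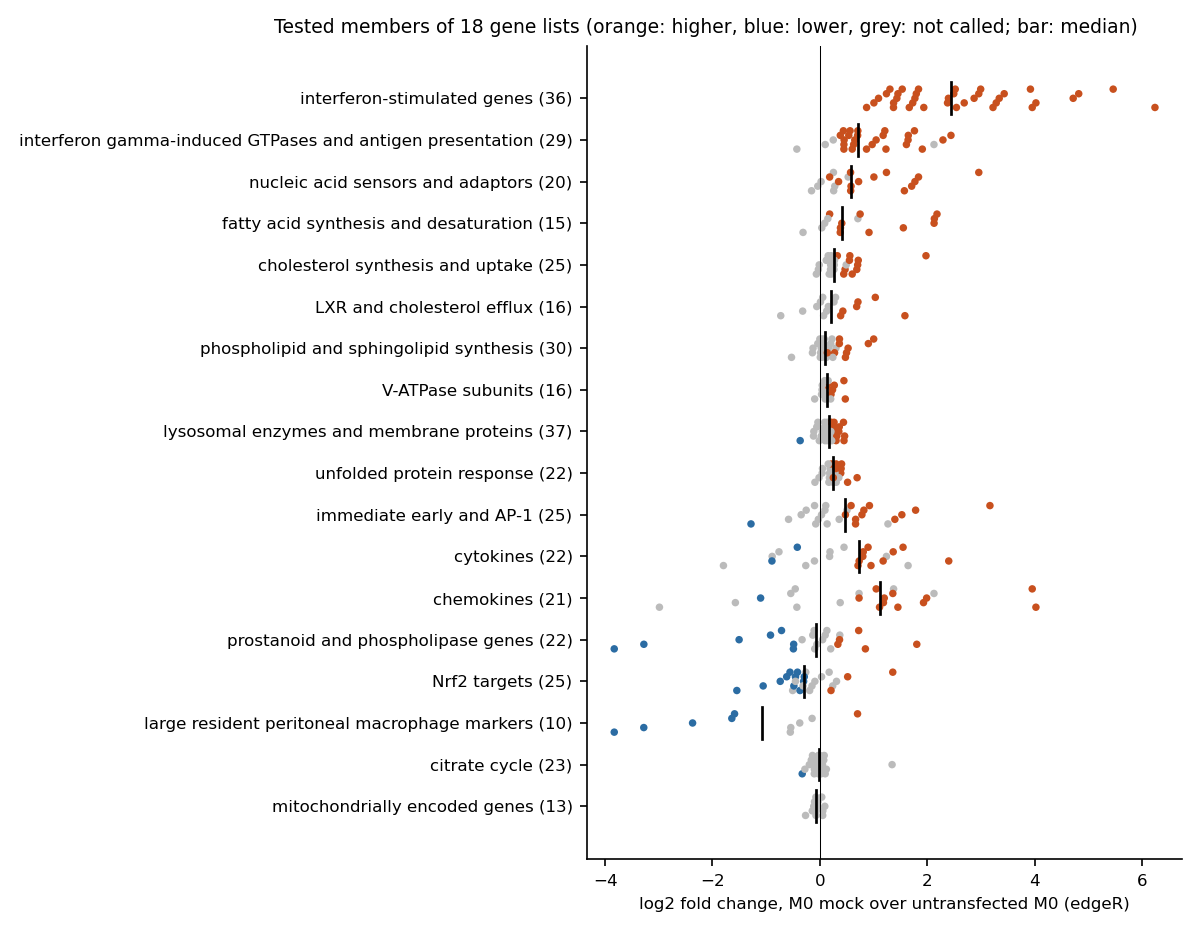
Log2 fold changes of M0 mock over untransfected M0 (horizontal axis) for the tested members of 18 gene lists (rows, number of members in brackets); each point is a gene, orange where it was called higher, blue where lower and grey where not called in edgeR, and the bar is the list's median. Interferon-stimulated genes are all orange with a median of 2.45, the fatty acid and cholesterol lists have medians of 0.41 and 0.27, and the medians of Nrf2 targets and resident macrophage markers lie below 0.

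The largest decreases included surface and secreted proteins that mark macrophage subsets. Marco (chr1:120474538-120505024, minus strand, protein-coding), a scavenger receptor for bacteria and particles, was at 65.2, 70.7 and 38.5 CPM in untransfected M0 and 1.26, 2.31 and 5.68 CPM in M0 mock, a log2 fold change of -4.24 ± 0.55 (adjusted p = 6.56e-07, edgeR). Pf4, the gene for a platelet chemokine that macrophages also make, was at 61.3, 49.5 and 54.7 CPM in untransfected M0 and 9.46, 10.7 and 12.9 CPM in M0 mock, and the fatty acid binding protein gene Fabp7 was at 50.5, 68.2 and 86.7 CPM in untransfected M0 and 13.7, 11.7 and 16.1 CPM in M0 mock, a log2 fold change of -2.31 ± 0.17. The protease inhibitor gene Serpinb1a was at 21.8, 16.01 and 15.7 CPM in untransfected M0 and 4.28, 3.38 and 3.59 CPM in M0 mock, and the muscle-type cytochrome oxidase subunit gene Cox6a2 was at 15.2, 11.1 and 12.7 CPM in untransfected M0 and 1.19, 1.61 and 2.48 CPM in M0 mock. The naming rule for the largest changes requires that the groups do not overlap, so that only the wide margin of these genes is an observation. F13a1, S100a4 and Id3 had log2 fold changes of -1.98, -1.92 and -1.91. Ccr2, the chemokine receptor of recruited monocytes, was at 10.3, 13.4 and 9.28 CPM in untransfected M0 and 2.17, 2.901 and 4.64 CPM in M0 mock. It was the member called among 7 monocyte markers, whose median log2 fold change was 0.11 and whose summed level was 86.4 to 108 CPM in untransfected M0 and 91.5 to 106 CPM in M0 mock. Fut7, for an enzyme that makes selectin ligands, fell by 1.74.

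Chil3, Arg1 and Retnla, which IL-4 induces in mouse macrophages, were all lower. Arg1 (arginase 1) was at 72.2, 28.7 and 13.8 CPM in untransfected M0 and 3.64, 3.12 and 5.23 CPM in M0 mock, with a wide spread among untransfected libraries, and its call was lost without untransfected M0 replicate 1 (-2.43, adjusted p = 0.0692, edgeR). Chil3 was at 9.52, 7.94 and 11.8 CPM in untransfected M0 and 2.17, 2.901 and 2.68 CPM in M0 mock, and Retnla was at 10.03, 12.5 and 10.9 CPM in untransfected M0 and 1.402, 2.42 and 1.11 CPM in M0 mock. The call of Retnla was lost without M0 mock replicate 1 (-2.62, adjusted p = 0.0511) or 3 (-2.50, adjusted p = 0.0614) in edgeR. The list of 21 IL-4 marker genes as a whole had 3 lower and 1 higher members with a median of -0.08. The last of the 15 decreases was Gm42418, a transcript that overlaps ribosomal RNA sequence, at 2204, 1377 and 440.3 CPM in untransfected M0 and 384, 393 and 434 CPM in M0 mock. Its level was spread over a wide range in untransfected M0 alone, and its call was lost without untransfected M0 replicate 1 (-1.17) or 2 (-1.71) or without M0 mock replicate 1 (-1.70), 2 (-1.71) or 3 (-1.79).

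Of 10 markers of large resident peritoneal macrophages 5 were called lower and 1 higher, with a median log2 fold change of -1.07. Prg4, for the lubricant protein lubricin, was at 44.7, 62.8 and 24.1 CPM in untransfected M0 and 4.63, 4.67 and 4.25 CPM in M0 mock, and the coagulation factor gene F5 was at 23.2, 31.6 and 20.5 CPM in untransfected M0 and 7.99, 8.11 and 8.099 CPM in M0 mock. Selp (P-selectin) was at 7.39, 8.996 and 6.68 CPM in untransfected M0 and 3.505, 2.04 and 2.22 CPM in M0 mock. Alox15, for the lipoxygenase of resident cells, was at 8.49, 34.4 and 1.71 CPM in untransfected M0 and 0.911, 1.56 and 0.588 CPM in M0 mock. The untransfected Alox15 values spread over more than 10-fold, with replicate 2 on top. Timd4, for a receptor of dying cells, was at 1.68, 3.66 and 0.818 CPM in untransfected M0 and 0.35, 0.269 and 0.588 CPM in M0 mock. Untransfected replicate 2 was highest for 8 of the 10 genes, and without it Alox15 changed by -2.27 (adjusted p = 0.169, edgeR), Timd4 by -1.63 (adjusted p = 0.224, edgeR), and 3 markers were called lower. The call of Timd4 was also lost without M0 mock replicate 1 (-2.30) or 2 (-2.12). Gata6, which codes for the factor that defines this lineage, went the other way at 16.5, 9.86 and 10.2 CPM in untransfected M0 and 19.9, 22.3 and 16.9 CPM in M0 mock; its call was lost without untransfected M0 replicate 2 (0.57) or 3 (0.59) or M0 mock replicate 2 (0.60). The summed level of the 10 markers, in which Cd9 dominates, was 851 to 918 CPM in untransfected M0 and 670 to 803 CPM in M0 mock. Vsig4, a complement receptor of resident macrophages, was at 34.8, 39.6 and 29.4 CPM in untransfected M0 and 12.7, 9.78 and 13.1 CPM in M0 mock.

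Several genes of leukotriene synthesis and adhesion were lower, while the lists that hold them were divided. Alox5 (5-lipoxygenase) was at 5.49, 7.94 and 5.25 CPM in untransfected M0 and 0.491, 0.913 and 0.457 CPM in M0 mock, and its partner Alox5ap was at 296, 299.7 and 306 CPM in untransfected M0 and 133, 144 and 199.7 CPM in M0 mock, a log2 fold change of -0.92 ± 0.11. Tbxas1, for thromboxane synthase, was at 129, 137 and 135 CPM in untransfected M0 and 91.9, 92.03 and 101 CPM in M0 mock. In the prostanoid and phospholipase list 7 of 22 genes were lower and 5 higher, Ptgs2 (cyclooxygenase 2) among the latter at 1.098, 0.62 and 0.546 CPM in untransfected M0 and 2.45, 2.31 and 3.14 CPM in M0 mock. Itgal, the alpha chain of LFA-1, was at 129, 157 and 171 CPM in untransfected M0 and 39.95, 53.6 and 58.8 CPM in M0 mock, a log2 fold change of -1.58 ± 0.12 (adjusted p = 1.55e-11, edgeR). Both synthesis and adhesion genes separated without overlap. Itgb7 was at 249.8, 212 and 239 CPM in untransfected M0 and 92.4, 140.1 and 154 CPM in M0 mock. In the list of adhesion, matrix and protease genes 8 of 33 were higher and 6 lower, with the proteoglycan gene Sdc1 at 324, 296 and 352 CPM in untransfected M0 and 709, 769 and 676 CPM in M0 mock and Mmp19 higher by 1.02. Cav1 (caveolin 1) fell by 1.32. Among 25 scavenger and efferocytosis genes 7 were higher and 5 lower. Mfge8, a bridge to dying cells, was at 2239.5, 2373 and 2270.3 CPM in untransfected M0 and 3646, 4381 and 3769 CPM in M0 mock, Axl rose by 1.15 and Havcr2 fell by 0.77. The lower count became 3 without untransfected M0 replicate 2.

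Of the 12 macrophage markers 3 were higher and 2 lower. Csf1r, the receptor for the growth factor of macrophages, was at 836, 1017 and 936 CPM in untransfected M0 and 629.8, 678 and 626 CPM in M0 mock, and Itgam (CD11b) was at 615, 719 and 626 CPM in untransfected M0 and 350.2, 372 and 491 CPM in M0 mock. Mertk, for a receptor that takes up dying cells, was higher by 0.45. Adgre1 (F4/80) was at 520.4, 594 and 488 CPM in untransfected M0 and 361, 397 and 520.4 CPM in M0 mock and did not pass the test, and neither did Cd68 (0.10) nor Lyz2 (-0.24). Without M0 mock replicate 3 both Adgre1 (-0.50, adjusted p = 0.00707, edgeR) and Lyz2 (-0.31, adjusted p = 0.0336, edgeR) were called lower. Markers of other cells moved at low levels alongside: the neutrophil genes Mmp8 and S100a8 had log2 fold changes of -0.86 and -0.70, the eosinophil gene Siglecf -0.83, the mesothelial gene Wt1 1.09 and the T cell gene Cd4 2.32. The other tested eosinophil gene, Ear2, was counted at 10, 17 and 3 reads in untransfected M0 and 0, 1 and 2 reads in M0 mock and was called lower (log2 fold change -3.28), a call lost without untransfected M0 replicate 2 (-2.74). S100a8 was lost without untransfected M0 replicate 3 (-0.47) or M0 mock replicate 2 (-0.50) and in the fit of the 6 libraries alone, Wt1 without untransfected M0 replicate 2 (0.84) or M0 mock replicate 2 (0.95), and Cd4 without untransfected M0 replicate 3 (2.02) or M0 mock replicate 2 (1.83). The part of these cells in the other differences was not tested.

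The 4 genes that the study targets with siRNA pools were read in the cells that had received reagent only. E2f1 was at 26.6, 24.6 and 27.6 CPM in untransfected M0 and 25.8, 27.5 and 25.7 CPM in M0 mock and Stat6 at 288, 279.8 and 269 CPM in untransfected M0 and 307, 296 and 282 CPM in M0 mock, with log2 fold changes of 0.01 and 0.08. Pparg was at 80.1, 79.8 and 79.1 CPM in untransfected M0 and 96.02, 95.6 and 79.7 CPM in M0 mock. Myc was at 14.9, 17.6 and 16.9 CPM in untransfected M0 and 24.95, 23.8 and 16.6 CPM in M0 mock, with a log2 fold change of 0.40 ± 0.15 and an adjusted p of 0.054 in edgeR. None of the 4 passed the test. Myc lay just outside the threshold: it was called with DESeq2 (adjusted p = 0.0287), and in edgeR with RLE size factors (adjusted p = 0.0487), without the filter (adjusted p = 0.0133), with the stricter filter (adjusted p = 0.0475), with a replicate block (adjusted p = 0.0376), with the block within M1 and within M2 (adjusted p = 0.0127) and without M0 mock replicate 3 (0.56, adjusted p = 0.00742, edgeR), and Pparg was called without that library as well (0.27, adjusted p = 0.0261, edgeR). Ago2, for the slicer of RNA interference, was at 309.9, 279.9 and 286 CPM in untransfected M0 and 635, 584 and 476 CPM in M0 mock, and it was the member called among 15 genes for RNA interference and the siRNA targets.

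The reagent was also applied to polarized cells, and the mock effects of the cell states were compared. In the reprogramming experiments, cells given IL-4 were cultured without it after transfection. The time of 24 h that the methods give for cells without transfection covers M1 and M2 too, and again may not hold for these libraries. Differences between mock effects can therefore hold time in culture and, for M2, loss of IL-4, which cannot be told apart from the reagent. In M1 no gene was called for mock against untransfected in edgeR, with 438 genes at an unadjusted p under 0.05, and none was called in DESeq2. In M2 237 genes (1.67%) were higher and 14 lower in mock. The mock effect differed between M0 and M1 for 1286 genes (9.07%) and between M0 and M2 for 802 genes (5.66%), by an interaction term in the same model. Replicate numbers pair the libraries within M1 and within M2, and with a block for these pairs the interactions were called for 2107 and 1545 genes and the M2 effect for 408. Of the 1663 genes higher in M0 mock, 805 differed from M1 and 452 from M2 in this test, and of the 1228 lower genes 437 and 315 did. The genes higher in M0 mock had a median log2 fold change of 0.56 in M0, 0.08 in M2 and -0.0097 in M1, and the genes lower in M0 mock had -0.46, -0.04 and -0.0035. The M0 values come from the comparison that chose these genes, and the untransfected groups differ between the cell states. In M2, 204 genes were higher in both cell states, 12.3% of the M0 list and 86.1% of the M2 list.

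Interferon-stimulated genes were higher in mock cells of both M0 and M2. In M2 34 of the 36 tested members were higher, with a median log2 fold change of 2.79, and the interaction between M0 and M2 was called for 3 of them, Rtp4, Oas2 and Oas3, each with the larger change in M2. Rtp4 changed by 2.87 in M0 and 4.97 in M2 (adjusted p of the interaction = 8.83e-04, edgeR). Ifit2 changed by 5.47 in M0 and 5.44 in M2, a difference of 0.03 ± 0.66 (SE). In M1 none of the 36 was called, with changes from -0.09 to 0.63 and a median of 0.16, and the interaction with M1 was called for all 36. Their summed level was already high in untransfected M1, at 3495 to 4028 CPM, and stood at 3867 to 4115 CPM in M1 mock. It was 715 to 800 CPM in untransfected M2 and 2414 to 3973 CPM in M2 mock, and replicate 1 was the lowest in each of the 3 mock groups. M0 mock replicates 2 and 3 thus lay above the whole range of untransfected M1.

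**Figure D4:**
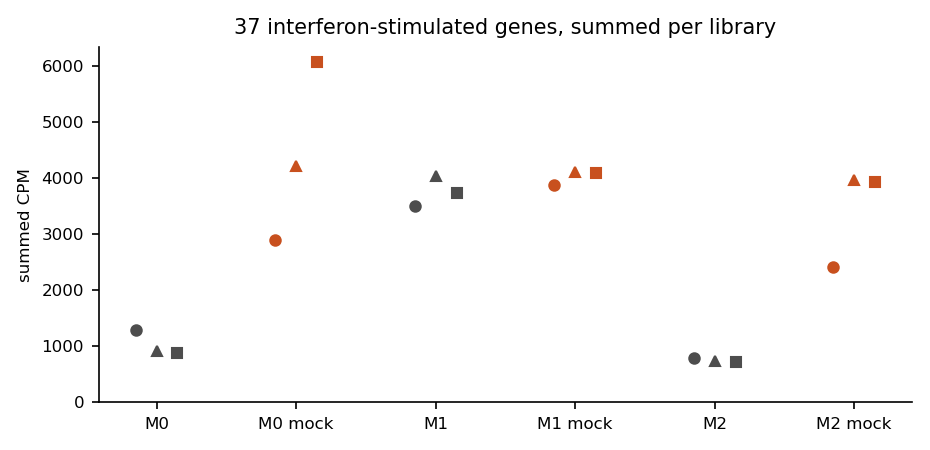
Summed CPM of the 37 interferon-stimulated genes (vertical axis, linear from 0) in each of the 18 untransfected (grey) and mock (orange) libraries of M0, M1 and M2; circle, triangle and square are replicates 1, 2 and 3. The sum lies between 884 and 1292 CPM in M0 and between 2890 and 6068 CPM in M0 mock; the M2 groups are apart as well, whereas the M1 groups overlap.

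Some lipid genes and some of the largest decreases had a mock effect in M0 that differed from that in M2. Scd2 changed by -0.06 in M2 and -0.17 in M1, Abca1 by -0.02 and -0.13, with interaction estimates against M2 of 2.24 ± 0.32 and 1.601 ± 0.23 (adjusted p = 3.28e-05 and 3.34e-05, edgeR). Of the lipid lists, no member of the fatty acid and cholesterol lists was called in M2, 1 LXR and 1 phospholipid gene were higher there, none was called in M1, and the interaction with M2 was called for 6 fatty acid, 8 cholesterol, 4 LXR and 5 phospholipid genes, out of 15, 25, 16 and 30, all with the more positive change in M0. Untransfected M1 and M2 differed in level from M0 for such genes before any reagent: Scd2 averaged 44.1 CPM in untransfected M0, 382 CPM in M2 and 33.8 CPM in M1. Marco, Prg4, Pf4 and Fabp7 showed changes of 0.32, 0.07, 0.13 and -0.02 in M2, beside -4.24, -3.28, -2.32 and -2.31 in M0. Their mean levels in untransfected M2 were 6.99, 10.6, 24.01 and 17.8 CPM and in M2 mock 8.803, 11.3, 26.2 and 17.5 CPM. Cdkn1c stood between, with 2.75 in M0, 0.92 in M2 and 0.08 in M1, and its interaction with M2 was called (adjusted p = 2.02e-05, edgeR).

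**Figure D5:**
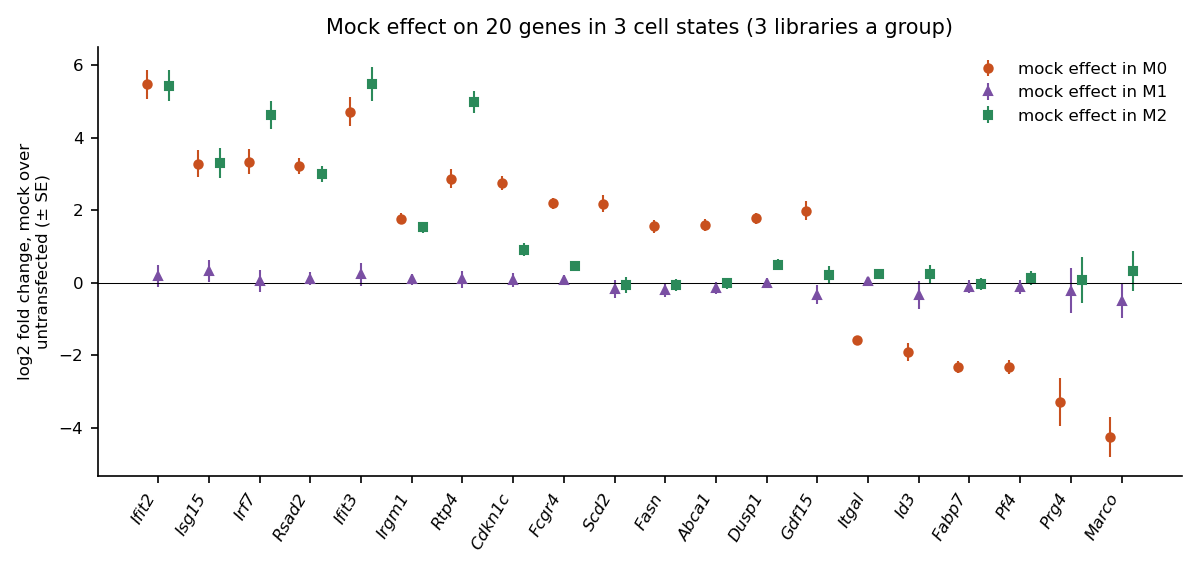
Log2 fold change of mock over untransfected macrophages (vertical axis, with SE bars from edgeR, 3 libraries a group) for 20 genes in M0 (circles), M1 (triangles) and M2 (squares). Ifit2, Isg15, Rsad2 and Irgm1 have similar values in M0 and M2 and lie near 0 in M1, whereas Scd2, Fasn, Abca1 and the genes from Itgal to Marco lie far from 0 in M0 and near 0 in M1 and M2.

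Genes that separate polarized from unpolarized macrophages were followed in the reagent comparison, using lists taken from the polarization experiment of the same series at 24 h (adjusted p under 0.05 and a log2 fold change of at least 2 either way in edgeR). Of 968 tested genes that were higher in M1 than in M0 there, 344 (35.5%) were higher and 40 (4.13%) lower in M0 mock, with a median log2 fold change of 0.36, against 11.7% and 8.66% of all genes. Without the genes of the interferon lists, 286 of 905 were higher and 40 lower, with a median of 0.32. Genes that respond to interferon but are not on those lists were not removed. The overlap apart from the interferon response was therefore not tested. Of 964 genes lower in M1, 122 were higher and 160 lower, with a median of -0.08. Of 72 genes higher in M2 than in M0, 14 were higher and 9 lower in M0 mock, and of 19 genes lower in M2, 3 were higher and 3 lower. The list of 19 genes known as markers of LPS and IFN-γ had 5 higher and no lower members. Socs3 was among the 5, and its change was carried by M0 mock replicate 3 alone. With the stricter filter of 10 counts in each library, 3 members were higher. Of the mitochondrially encoded genes 0 of 13 were called in edgeR and 0 had an unadjusted p under 0.05, with log2 fold changes from -0.27 to 0.09, and of the citrate cycle genes 1 of 23 was called lower, with a median of -0.02.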

How the data were processed

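RNA of mouse peritoneal macrophages was sequenced with paired reads of 150 nucleotides. Trimmomatic (trimming), TopHat2 (alignment to mm10) and featureCounts (counting per gene) were run by the authors; tool versions, the annotation used for counting and its strand setting are not given in the sources used here. The deposited values are raw read counts without normalization, and they were used as deposited. Symbols and coordinates of 37607 of the 39179 identifiers came from GENCODE M21.

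Groups were taken from the sample labels. Genes were filtered with filterByExpr (minimum count 10, minimum total count 15), which kept 14172 genes, normalized with TMM and compared with the two-sided quasi-likelihood test of edgeR 4.0.16 (R 4.3.3) in 1 model over all 36 libraries with 1 coefficient per group, with Benjamini-Hochberg adjustment over all tested genes and a call at an adjusted p under 0.05. DESeq2 1.42.0 was an alternative, and the scripts were tested on simulated data. SE values were derived from F, as the absolute log2 fold change over its square root. The mock effect was compared between cell states with interaction contrasts. Alternatives comprised DESeq2, scaling by RLE, omission of the filter, a stricter filter of 10 counts in each library, a replicate block, the 6 libraries alone, a log2 fold change of at least 1, and leaving out each library. Replicate numbers come from the labels. After removing group means, same-numbered libraries of M0 and M0 mock correlated at -0.25, -0.04 and -0.09. Over the genes compared, these numbers showed no pairing, which cannot exclude a shared origin. Replicate 2 was highest for 8 of 8 tested B cell markers in untransfected M0 and 7 of 8 in M0 mock. The sum of these markers was highest in replicate 2 in M1, M1 mock, M2 and M2 mock as well. It stood there at 19.6, 21.7, 80.4 and 37.0 CPM, against at most 7.32, 6.67, 45.4 and 22.7 CPM in the other replicates. Whether replicate numbers share a source across the cell states was not tested. Same-numbered libraries of M1 (0.51 to 0.63) and M2 (0.29 to 0.42) correlated and were taken as paired. A block within M1 and within M2 was added after seeing the data. No pair of libraries of a group was a duplicate by a chi-square test of counts.

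Genes named are the 15 largest changes each way (adjusted p under 0.05, mean log2 CPM of at least 2, no overlap), up to 6 members per list by adjusted p together with defining members, the siRNA targets and the 5 largest interactions per contrast. Atf3, Il1b, Nqo1, Hmox1, Ifi44, Ifi44l and Ifit3b were added for their known roles or for their place in a list. The comparison and the 51 gene lists were chosen with earlier results of these data known. Promoter windows were read from RefSeq (GRCm38.p6), with chromosome 18 left out. Depth allows single reads to be counted, and intervals cover counting error and the spread within groups over the 36 libraries only. A few single genes are not reported here.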

Additional observations from a re-analysis of the deposited data

Results flagged for a closer look

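The following results were singled out because the mock effect differed between cell states by an interaction term in edgeR, which compares the change in M0 with that in M1 or M2. The mock effect differed between M0 and M1 for 1286 genes and between M0 and M2 for 802 genes. Against M1, the largest were 4 interferon-related genes with the more positive change in M0, and Marco with the more negative one. The difference was 5.27 on the log2 scale for Ifit2 (adjusted p = 1.28e-08, edgeR), 4.49 for Ifit3 (adjusted p = 4.39e-07, edgeR) and 4.32 for Ifi213 (adjusted p = 1.98e-06, edgeR). It was 4.30 for Ifi206 (adjusted p = 2.43e-05, edgeR) and -3.73 for Marco (adjusted p = 6.93e-04, edgeR). Ifi206 was not among the 15 largest increases that met the naming rule, which sets a minimum level in the M0 and M0 mock libraries. Ifi206 was higher in 3 of 3 M0 mock libraries than in all untransfected M0 libraries. For Ifit2, Ifit3 and Ifi213 the naming rule required this.

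Against M2, the largest 5 all had the more negative change in M0. The difference was -4.56 for Marco (adjusted p = 3.62e-04, edgeR), -3.35 for Prg4 (adjusted p = 0.0229, edgeR) and -3.32 for Cox6a2 (adjusted p = 0.00885, edgeR). It was -2.66 for Serpinb1a (adjusted p = 8.31e-07, edgeR) and -2.45 for Pf4 (adjusted p = 8.31e-07, edgeR). All 5 were lower in 3 of 3 M0 mock libraries than in all untransfected M0 libraries. Groups of 3 libraries are too small to single out one library as an outlier.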

How the results depend on the processing

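More genes were higher than lower in M0 mock under DESeq2, RLE size factors, the filters, the replicate block and the fit of the 6 libraries alone, with 1397 to 1966 genes higher and 951 to 1504 lower. Leaving out 1 library gave 1258 to 1492 higher and 863 to 1094 lower genes, 954 to 1361 that differed between M0 and M1, 547 to 913 that differed between M0 and M2, and 185 to 253 called in M2 and 0 in M1. A log2 fold change of at least 1 left 494 higher and 176 lower genes, 412 and 212 interactions with M1 and M2, and 120 in M2. Without the filter on low counts 42 genes were called in M1 and 387 in M2; the cause was not tested. The replicate block gave 1966 higher and 1504 lower genes, and the block within M1 and within M2, whose numbers pair the libraries, gave 2174 higher and 1707 lower genes, 2107 and 1545 interactions with M1 and M2, 408 genes in M2 and 0 in M1. Of 160 named genes, all but Myc kept their side of the threshold under DESeq2 and RLE size factors. The fit of the 6 libraries alone lost the calls of Ifnar1, Jak1, Socs3 and S100a8 among 157 genes tested there, and omitting the filter lost Ifnar1 and Jak1 and added Myc and Adgre1. The replicate block added Myc, Adgre1 and Lyz2, as did the block within M1 and within M2, and the stricter filter added Myc. Leaving out 1 library lost 5 to 9 calls. The log2 fold change of E2f1, a gene that was not called, ranged from -0.039 to 0.043 when 1 library was left out, with -0.028 without M0 mock replicate 2. The list of interferon-stimulated genes had 32 to 36 members higher under all alternatives other than the fold threshold. Of the 102 counts of list members by direction, 57 moved by over 1.5 times with the fold threshold, since small changes are dropped by its construction. With 3 libraries a group, small changes of genes with few reads were not detectable.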

Other observations

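Iron and metal handling genes were divided, with 5 of 19 tested members higher and 1 lower in M0 mock. Slc11a2, for the transporter that brings iron out of endosomes, was at 91.9, 88.8 and 86.1 CPM in untransfected M0 and 139.6, 145 and 154 CPM in M0 mock, a log2 fold change of 0.72 ± 0.06 (adjusted p = 3.32e-10, edgeR), and the transferrin receptor gene Tfrc was at 120.3, 133 and 111 CPM in untransfected M0 and 183, 159.9 and 171 CPM in M0 mock. Both import genes and the ferritin gene Fth1, for iron storage, were thus higher. The count of 5 fell to 3 without M0 mock replicate 2. Among 29 targets of the integrated stress response 3 were higher and 3 lower, with a median log2 fold change of -0.24; all 3 mock libraries lay below the untransfected ones for 12 and above them for 4. The lower count was 9 in the fit of the 6 libraries alone, 10 without the filter on low counts, 8 with the replicate block and 13 with the block within M1 and within M2, and 1 without M0 replicate 1 or 3 or M0 mock replicate 1 or 2. Ppp1r15a, which ends that response, was at 28.3, 26.6 and 27.7 CPM in untransfected M0 and 53.3, 54.9 and 43.2 CPM in M0 mock, while Cebpg was at 126, 130.3 and 132 CPM in untransfected M0 and 74.1, 69.5 and 82.7 CPM in M0 mock. The amino acid gene Psat1 was at 42.4, 40.8 and 46.6 CPM in untransfected M0 and 19.1, 23.05 and 19.3 CPM in M0 mock and Trib3 at 30.5, 24.2 and 28.8 CPM in untransfected M0 and 11.6, 12.2 and 13.8 CPM in M0 mock. Psat1 was lost without any 1 of the 6 libraries (-1.17 to -1.02), and Trib3 without M0 replicate 1 (-1.08) or 3 (-1.12) or M0 mock replicate 1 (-1.10) or 2 (-1.13).

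The calls of other gene groups in edgeR stand beside 11.7% of all tested genes called higher and 8.66% called lower. Some of these groups held larger shares and some smaller ones. Of 37 cell cycle and DNA replication genes 1 was higher and 4 were lower, of 30 Myc and ribosome biogenesis genes 2 were higher, and of 18 cytosolic heat shock genes 3 were higher and 1 was lower. Among 26 glycolysis and lactate genes 5 were higher and 4 lower, with log2 fold changes of 0.47 for Hk3 and -0.38 for Gpi1. Complement genes had 4 of 20 higher and 2 lower, chemokine receptors 2 of 14 each way, autophagy genes 3 of 22 higher and 2 lower, endocytosis and membrane trafficking genes 4 of 26 each way, and lipid-associated macrophage genes 5 of 16 higher and 1 lower. Arginine and polyamine metabolism had 3 of 16 lower. Many of these counts rested on single libraries. Without M0 replicate 1, 2 lipid-associated genes were higher and 1 arginine gene was lower. Without M0 replicate 2, 2 endocytosis, 2 glycolysis, 2 cell cycle and 0 autophagy genes were lower, and 3 glycolysis, 3 lipid-associated and 1 of the Myc genes were higher. Without M0 replicate 3, 1 complement and 1 heat shock gene were higher and 2 glycolysis and 2 cell cycle genes lower. Without M0 mock replicate 1, 1 heat shock gene was higher, 2 lipid-associated, 2 glycolysis and 2 cell cycle genes were lower; without M0 mock replicate 2, 2 endocytosis, 2 glycolysis and 0 heat shock genes were lower, and 0 cell cycle and 1 of the Myc genes were higher. Without M0 mock replicate 3, 2 complement, 3 glycolysis and 3 lipid-associated genes were higher and 2 lipid-associated and 2 cell cycle genes lower. The count of lower autophagy genes was 1 without any of the other 5 libraries. Over all 51 lists, 253 of 882 different tested genes were higher and 80 lower, but the lists were chosen with earlier results known.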
